A study of Drosophila melanogaster with 16 samples.

Results

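The genes described here are 44 homeobox and paired-class genes of Drosophila that belong neither to the Hox clusters' segment identity genes nor to the usual list of eye determination genes. They were chosen by name, and each was looked up by its FlyBase identifier in the authors' deposited tables of 4 Polycomb group mutants. A total of 25 of the 44 were listed in at least 1 table, of 6774 genes listed in any, and 19 were listed in none. How many genes were tested over the 4 tables together is not known, so the 6774 are given without a share. The 25 are therefore not read as many. In the longest table, that of the mutant Psc-Su(z)2, 52.3% of the 44 were listed, against 69.4% of all genes tested there. How many of the 44 were tested is not known, and the difference was not tested.

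Homeobox genes encode transcription factors that bind DNA through the homeodomain, and most of them give cells a regional or cell type identity in the embryo and in the nervous system. Paired-class genes are relatives that encode a paired domain, with a homeodomain beside it in some (prd, gsb, gsb-n) and without one in Poxn and Poxm. Many genes of both kinds are textbook targets of Polycomb repression: PRC2 places a methyl mark on histone H3 (K27me3) through its enzyme E(z) and its subunit Su(z)12, and PRC1, with Polycomb, Polyhomeotic and either Psc or Su(z)2, binds the chromatin and keeps the genes silent where they are not used. In the eye disc, the larval epithelium that forms the eye and parts of the head, most of the 44 are better known from the embryo and the nervous system than from eye formation. Some are used in the eye, such as Pph13, which acts in photoreceptors, onecut, which is expressed in photoreceptors and other neurons, and ct, which is expressed in the cone cells.

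RNA-seq was done on eye discs of L3 larvae with the genotypes Ez731 (strain FRT2A), Suz12 (FRT2A, here Su(z)12), PH505 (FRT19A, here ph505) and Psc Suz2 1.b8 (also spelled Susz2 in the labels; FRT42D, here Psc-Su(z)2). The controls were labelled WT and carried the matching FRT2A, FRT19A or FRT42D chromosome, so that mutant and control share the site of the FLP recombinase. Ez731 and Su(z)12 share the FRT2A control. Whether all cells of a mutant disc were mutant is not given in the labels. Every group is a single sample, labelled as replicates 1 and 2 together, with no value per replicate, so no spread between replicates and no error of a fold can be given. Depth is unknown. In the authors' deposited tables every listed gene has a log2 fold, a log2 CPM (read counts scaled to library size, over the libraries of the comparison) and p-values of edgeR, and the lists stop at a false discovery rate of 5% (genes in them are termed called). A gene in no table can be unchanged, too weak to test or missed, and these cannot be told apart here.

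The tissue and the direction of the tables were checked first. The eye determination genes ey, toy and so were listed in all 4 authors' deposited tables with log2 CPM of 6.09 to 8.38. In the authors' deposited tables E(z) had a log2 fold of −0.99 in Ez731 and Psc one of −3.94 in Psc-Su(z)2, so folds were read as mutant over control. For Psc-Su(z)2 the check rests on Psc, and no value of Su(z)2 is given here. The gene Su(z)12 was not listed for its own mutant. Under the label ph505, the authors' deposited table put ph-p at 0.78 and ph-d at 0.90, with Psc at 0.96 and Su(z)12 at 0.40. The ph transcripts alone thus do not give the direction of that table. Whether the allele lowers these transcripts is not known here. Of the Hox genes, the authors' deposited ph505 table had pb, Scr, Antp, Ubx, abd-A and Abd-B higher, at 2.83 (Scr) to 7.09 (Abd-B), lab lower, at −1.01, and Dfd not listed, while ey, toy and so were lower. Each of these but Dfd went the same way in every other table that listed it. The ph505 folds were therefore read as mutant over control, like those of the other tables. Directions given for ph505 hold for the table so labelled. Among cells that can come along with a disc, 6 of 7 fat body markers were called in each of Ez731, Su(z)12 and ph505, all lower, and blood cell markers were lower where called in these 3 tables (5, 5 and 4 of 8) and higher in Psc-Su(z)2 (6 of 8). Their part in the values of the list was not tested. Discs were sequenced whole, so fewer cells of a type and less RNA per cell cannot be told apart in any of the values.

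HGTX, Hmx, Lim3, Awh and lbl, 5 members of the list, were called in all 4 mutants. A further 2, onecut and ct, were called in 3 tables, 8 in 2 tables and 10 in 1. The share of all genes called in as many tables was not worked out, so these counts are not read as particular to the list. In Ez731, 5 of the 44 were called (11.4%), 3 higher and 2 lower, where the authors called 9.87% of all genes behind their adjustment, 3.46% higher and 6.41% lower. In Su(z)12, 10 were called (22.7%), 6 higher and 4 lower, against 14.6% of all genes, 5.89% higher and 8.73% lower. In the table labelled ph505, 14 were called (31.8%), 6 higher and 8 lower, against 26.7% of all genes, 12.1% higher and 14.6% lower. In Psc-Su(z)2, 23 were called (52.3%), 11 higher and 12 lower, against 69.4% of all genes, 35.5% higher and 33.9% lower. How many of the 44 the authors could test is not known, so these shares have unlike denominators. The share of the list is close to the background in Ez731 and ph505, above it in Su(z)12 and below it in Psc-Su(z)2, and none of these differences was tested.

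**Figure D1:**
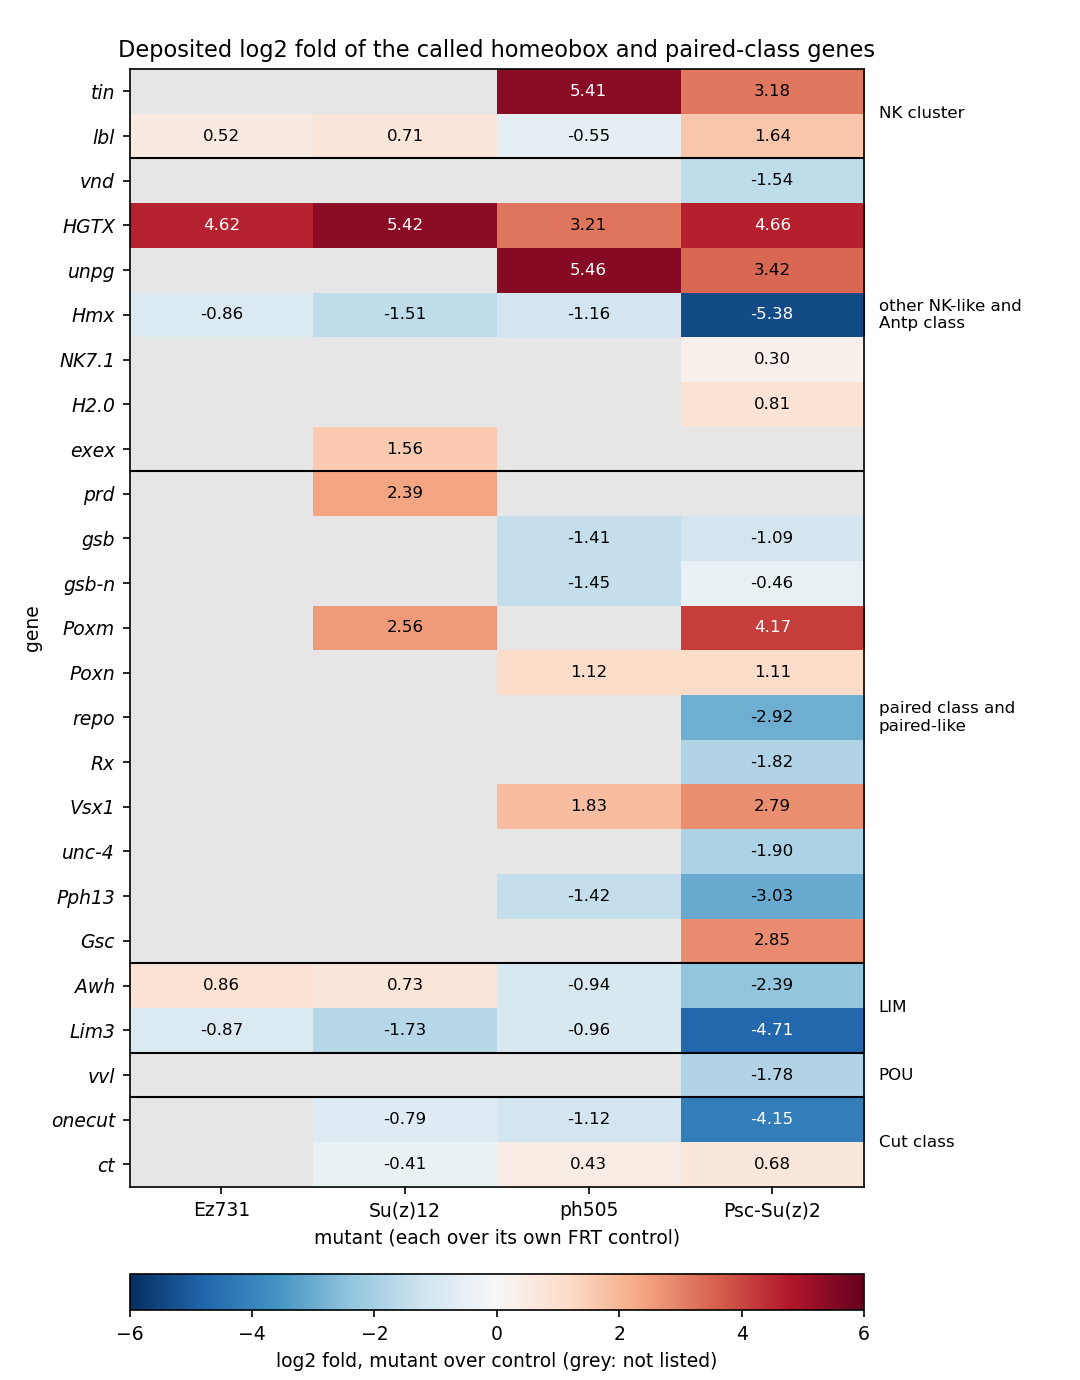
Log2 folds of the 25 called genes of the list (rows, by family) in the 4 mutants (columns), each mutant over its own FRT control, as the authors deposited them; red is higher and blue lower in the mutant, and grey cells are genes not listed in that table. HGTX is red in all 4 columns, Hmx and Lim3 are blue in all 4, and Awh, lbl and ct change colour between columns.

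HGTX was the only member of the list called higher in all 4 mutants (with the ph505 folds read the other way round, in 3). It is the fly relative of the vertebrate Nkx6 genes and acts in motor neuron specification in the embryo. HGTX (FBgn0040318) had log2 folds of 4.62, 5.42, 3.21 and 4.66 in the authors' deposited Ez731, Su(z)12, ph505 and then Psc-Su(z)2 tables (edgeR adjusted p = 4.79e-19, 8.77e-30, 3.01e-11 and 7.88e-23). These are levels 24.7, 42.7, 9.24 and 25.3 times those of the controls. It was the highest called member of the list in Ez731, Su(z)12 and Psc-Su(z)2 and the third in ph505. Among all higher genes of the authors' deposited tables its fold ranked 15 of the 309 in Ez731, 9 of the 525 in Su(z)12, 34 of the 1064 in ph505 and 72 of the 3154 in Psc-Su(z)2. Its log2 CPM over mutant and control libraries together was low, between 1.48 and 2.605, and a fold of a gene that is near 0 in the controls depends on the small count that edgeR adds.

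The homeobox genes tin and unpg rose in both PRC1 mutant tables and were listed in neither PRC2 mutant table. The gene tin (FBgn0004110) is the determinant of heart and visceral mesoderm, and unpg (FBgn0015561) is a Gbx-type gene expressed in the embryonic nervous system. Log2 folds of tin were 5.41 in ph505 and 3.18 in Psc-Su(z)2 in the authors' deposited tables (edgeR adjusted p = 1.52e-39 and 1.15e-12). Those of unpg were 5.46 and 3.42 in the same authors' deposited tables (edgeR adjusted p = 3.71e-30 and 2.09e-16). Both were weakly expressed, with log2 CPM of 2.94 and 1.23 for tin and 2.42 and 1.82 for unpg. The pair had nearly equal folds in each table, and ranked 9 and 8 of the 1064 higher genes of ph505, but 200 and 167 of the 3154 of Psc-Su(z)2. Not being listed in Ez731 and Su(z)12 does not show that the PRC2 mutants differ from the PRC1 mutants in these genes, and the difference was not tested.

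Poxm, a paired-domain gene of the somatic muscle lineage, rose in Su(z)12 and Psc-Su(z)2. In the authors' deposited tables Poxm (FBgn0003129) had log2 folds of 2.56 and 4.17 there (edgeR adjusted p = 3.59e-09 and 8.01e-45), and in the Release 6 annotation it overlaps Ctr1B, Or85a and CG7443. Ctr1B, a copper transporter gene, was also higher in the authors' deposited Psc-Su(z)2 table, at 3.82. Whether the TruSeq libraries marked the strand is not known here. If they did not, reads of overlapping genes may be shared. The same holds for 7 other called members that overlap a gene in that annotation, vnd, NK7.1, prd, Poxn, repo, Gsc and Lim3. Beside NK7.1, spn-B stood at 1.00 in the authors' deposited Psc-Su(z)2 table. Muscle and myoblast markers did not go with Poxm or tin in a single direction: none of the 4 called markers was higher in Su(z)12 and none of the 6 in ph505, while in Psc-Su(z)2 4 of 7 were. Their deposited log2 folds spanned −1.71 to −0.40, −2.04 to −0.38 and −4.63 to 2.76. Of these, the mesoderm gene twi stood at −1.79 in ph505 and 2.76 in Psc-Su(z)2, and Mef2 at 0.48 in the authors' deposited Psc-Su(z)2 table. The other higher markers in Psc-Su(z)2 were htl, at 1.21, and how, at 0.32. The lower ones there were Mhc, at −4.63, Act57B, at −2.22, and sls, at −1.02. The part of muscle precursor cells in the values of tin and Poxm was not tested.

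Of the remaining paired-class and paired-like genes, prd, Vsx1, Poxn and Gsc rose in at least 1 mutant. The pair-rule gene prd (FBgn0003145) rose by a log2 fold of 2.39 in the authors' deposited Su(z)12 table (edgeR adjusted p = 0.00184), at a log2 CPM of 0.47. Vsx1, a gene of the optic lobe primordium, rose by 1.83 in ph505 and 2.79 in Psc-Su(z)2 in the authors' deposited tables (edgeR adjusted p = 0.00148 and 1.34e-15), at log2 CPM of 0.19 and 2.28. Poxn, which sets the identity of taste bristles, rose by 1.12 and 1.11 there (edgeR adjusted p = 0.0278 and 0.00705), at log2 CPM of 0.70 and 1.37. Gsc, a gene of the embryonic head and foregut, rose by 2.85 in the authors' deposited Psc-Su(z)2 table (edgeR adjusted p = 8.37e-10), at a log2 CPM of 0.87.

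The lower genes of the same class were Pph13, repo, Rx, unc-4 and the pair gsb and gsb-n. The photoreceptor gene Pph13 had log2 folds of −1.42 in ph505 and −3.03 in Psc-Su(z)2 in the authors' deposited tables (edgeR adjusted p = 0.0224 and 8.59e-07), at log2 CPM of only 0.14 and 0.21. The glial determinant repo stood at −2.92, the neuronal gene unc-4 at −1.90 and Rx, a gene of the brain, at −1.82 in the authors' deposited Psc-Su(z)2 table (edgeR adjusted p = 9.97e-41, 1.28e-21 and 0.00117). Rx was as weakly expressed as Pph13, with a log2 CPM of 0.08, against 3.84 for repo and 4.03 for unc-4. In Ez731, 0 of the 15 genes of this class were called by the authors' edgeR test, where 9.87% of all genes were called, and p-values above their threshold were not analysed here, so no count at an unadjusted p is given.

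The adjacent paralogs gsb and gsb-n, a segment polarity gene and its relative of the nervous system, fell together. Log2 folds in the authors' deposited ph505 table were −1.41 for gsb and −1.45 for gsb-n (edgeR adjusted p = 1.57e-06 and 3.09e-06), at log2 CPM of 3.47 and 3.44. In the authors' deposited Psc-Su(z)2 table they were −1.09 and −0.46 (edgeR adjusted p = 1.4e-06 and 0.0312). The next gene along the chromosome, the neuropeptide precursor gene Nplp1, was also lower in all 4 authors' deposited tables, at −1.17, −1.65, −1.87 and −4.11 in Ez731, Su(z)12, ph505 and then Psc-Su(z)2. The labels do not say how reads shared by the paralogs were counted, which leaves their separate values uncertain.

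Hmx, Lim3 and onecut, all known from the nervous system, were lower in each table that listed them, with the largest folds in Psc-Su(z)2. Hmx (FBgn0264005), a homeobox gene of the embryonic head and nervous system, had log2 folds of −0.86, −1.51, −1.16 and −5.38 in the authors' deposited Ez731, Su(z)12, ph505 and then Psc-Su(z)2 tables (edgeR adjusted p = 0.00428, 9.81e-08, 1.05e-05 and 8.13e-57). Lim3 (FBgn0002023), a LIM-homeobox gene of motor neuron identity, had −0.87, −1.73, −0.96 and −4.71 in the same order of authors' deposited tables (edgeR adjusted p = 0.00109, 5.66e-11, 0.000166 and 6.12e-48). The order of the mutants by size of the fall was the same for both, with Psc-Su(z)2 first, then Su(z)12, ph505 and Ez731. With the ph505 folds read the other way round, Hmx, Lim3 and onecut would be higher in ph505 and lower in the other tables that list them.

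The Cut-class gene onecut (FBgn0028996) was not listed in Ez731 and stood at −0.79, −1.12 and −4.15 in the authors' deposited Su(z)12, ph505 and Psc-Su(z)2 tables (edgeR adjusted p = 7.38e-06, 2.96e-08 and 1.09e-125). In Psc-Su(z)2 discs the level of Hmx was thus 41.6 times, that of Lim3 26.2 times and that of onecut 17.7 times lower than in the FRT42D control. Neuron markers fell in every table: 4 of 8 were called in Ez731, 6 in Su(z)12, 6 in ph505 and 8 in Psc-Su(z)2, all lower, with median deposited log2 folds of −0.76, −1.28, −0.80 and −3.53. The lowest was scrt, at −6.25 in the authors' deposited Psc-Su(z)2 table. Not all members known from the nervous system were lower. HGTX was higher in all 4 mutants, unpg in ph505 and Psc-Su(z)2 and exex in Su(z)12, while unc-4, gsb-n, Rx and vnd were lower where listed. The part of a smaller number of neurons in the values of Hmx, Lim3 and onecut was not tested.

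Glial markers were divided where repo fell. In Psc-Su(z)2, 8 of 9 glial markers were called, 4 higher (gcm 2.53, moody 1.70, nrv2 0.39 and loco 0.19) and 4 lower (Gs2 −4.20, Mdr65 −3.36, Gli −1.69 and wrapper −1.21), as deposited by the authors. In the other tables repo was not listed, and the authors' deposited tables held 5 called glial markers in Ez731, 4 in Su(z)12 and 4 in ph505, of which 1 in each was higher. The part of glial number in the value of repo was not tested.

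Awh, lbl and ct were the members called in opposite directions in different mutants. Awh (FBgn0013751) is a LIM-homeobox gene of abdominal histoblasts and of the salivary gland imaginal ring. It was higher in both PRC2 mutants, with log2 folds of 0.86 in Ez731 and 0.73 in Su(z)12, and lower in both PRC1 mutants, with −0.94 in ph505 and −2.39 in Psc-Su(z)2, in the authors' deposited tables (edgeR adjusted p = 0.00331, 0.0128, 0.00237 and 1.77e-16). The gene lbl (FBgn0008651), of muscle and heart precursors, stood at 0.52, 0.71, −0.55 and 1.64 in the same order of authors' deposited tables (edgeR adjusted p = 0.0198, 0.000107, 0.0212 and 2.79e-61). The table labelled ph505 was thus the only 1 of the 4 with a lower lbl.

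The sensory organ gene ct had −0.41 in Su(z)12, 0.43 in ph505 and 0.68 in Psc-Su(z)2 in the authors' deposited tables (edgeR adjusted p = 0.00644, 6.97e-05 and 2.4e-16). Its log2 CPM of 6.62 to 7.42 was the highest of all called members in each of these tables. If the ph505 folds were read the other way round, lbl would be higher in all 4 mutants, Awh lower only in Psc-Su(z)2, and ct higher only in Psc-Su(z)2. The differences between mutants were not tested, since each mutant is 1 sample with its own or a shared control.

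The 6 genes of the NK cluster (tin, bap, lbe, lbl, C15 and slou), a group of homeobox genes of mesoderm and ectoderm that lie near each other, were listed in part. The listed genes were tin and lbl, while bap, the next gene beside tin, and lbe, the next gene beside lbl, were in no table. In the Release 6 gene order OdsH, the neighbour and paralog of unc-4, was not listed either. Pph13 and Gsc lie side by side and went opposite ways in the authors' deposited Psc-Su(z)2 table, at −3.03 and 2.85. Of the called members, none of the 5 in Ez731, none of the 10 in Su(z)12, 6 of the 14 in ph505 and 11 of the 23 in Psc-Su(z)2 had a next protein-coding gene called in the same direction (0%, 0%, 42.9% and 47.8%), against 15.2%, 20.0%, 25.6% and 48.1% of all called genes with a place in the order. In ph505, gsb and gsb-n count for each other among the 6.

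A few more members were called in a single table. The POU gene vvl, of trachea and wing veins, fell by 1.78 on the log2 scale in the authors' deposited Psc-Su(z)2 table (edgeR adjusted p = 1.99e-40), and vnd, of the ventral neural column of the embryo, by 1.54 (edgeR adjusted p = 0.00948). The log2 CPM was 4.89 for vvl and only 0.12 for vnd. The visceral muscle gene H2.0 stood at 0.81 and NK7.1 at 0.30 in the same authors' deposited table (edgeR adjusted p = 0.0401 and 0.0152). The motor neuron gene exex stood at 1.56 in the authors' deposited Su(z)12 table (edgeR adjusted p = 0.0178), at a log2 CPM of 0.49. For vvl, tracheal markers are given beside it: 5 of 6 were called in Psc-Su(z)2, 4 higher and 1 lower, with deposited log2 folds of −1.20 to 2.95. The part of tracheal cells in the value of vvl was not tested.

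The 19 members in none of the tables were bap, lbe, C15, slou, ind, Dr, bsh, btn, scro, zen, zen2, bcd, ftz, hbn, OdsH, otp, Ptx1, pdm2 and acj6. They include all 4 genes that derive from Hox-complex genes or sit among them without a Hox function (zen, zen2, bcd and ftz), which act in early embryonic patterning, and 2 of the 3 POU genes. The identifier of scro is newer than any in the authors' tables, so scro could not be found there under it, and the same holds for ap and btl of the comparison lists.

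**Figure D2:**
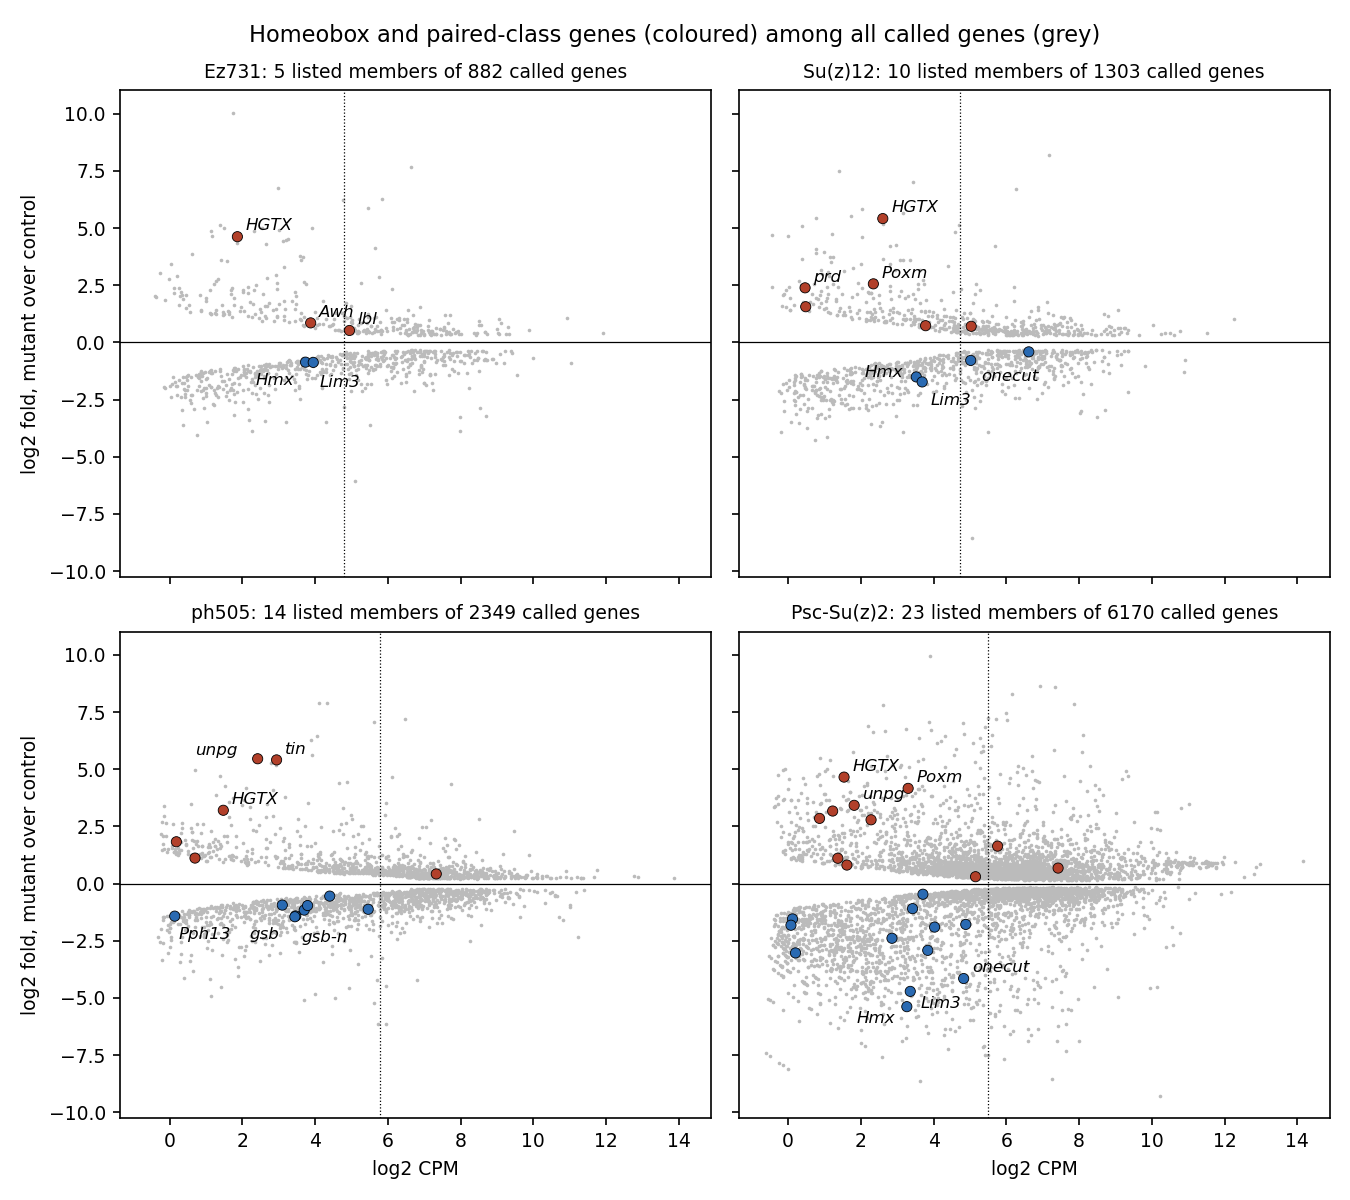
Log2 fold of mutant over control (vertical axis) against log2 CPM (horizontal axis) for all called genes (grey) and the called homeobox and paired-class genes (red higher, blue lower) of the 4 deposited tables; the dotted line is the table's median log2 CPM. Most coloured points lie left of the dotted line, that is 4 of the 5 in Ez731, 7 of the 10 in Su(z)12, 13 of the 14 in ph505 and 21 of the 23 in Psc-Su(z)2.

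Called members were weakly expressed, and in the PRC1 mutants their folds were large. Their median log2 CPM was 3.88, 3.61, 3.27 and 3.27 in Ez731, Su(z)12, ph505 and then Psc-Su(z)2, against 4.78, 4.74, 5.78 and 5.49 for all called genes of the authors' deposited tables. A change of at least 2-fold was found for 1 of the 5 called members in Ez731 (20.0%), 6 of the 10 in Su(z)12, 10 of the 14 in ph505 (71.4%) and 19 of the 23 in Psc-Su(z)2 (82.6%), against 52.3%, 51.3%, 34.8% and 40.2% of all calls. A weakly expressed gene needs a larger fold to be called. Among calls below the median log2 CPM, 25.0%, 85.7%, 76.9% and 85.7% of the members changed at least 2-fold in Ez731, Su(z)12, ph505 and then Psc-Su(z)2, against 79.1%, 78.8%, 57.6% and 58.5% of all genes. These shares describe the calls and were not tested.

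**Figure D3:**
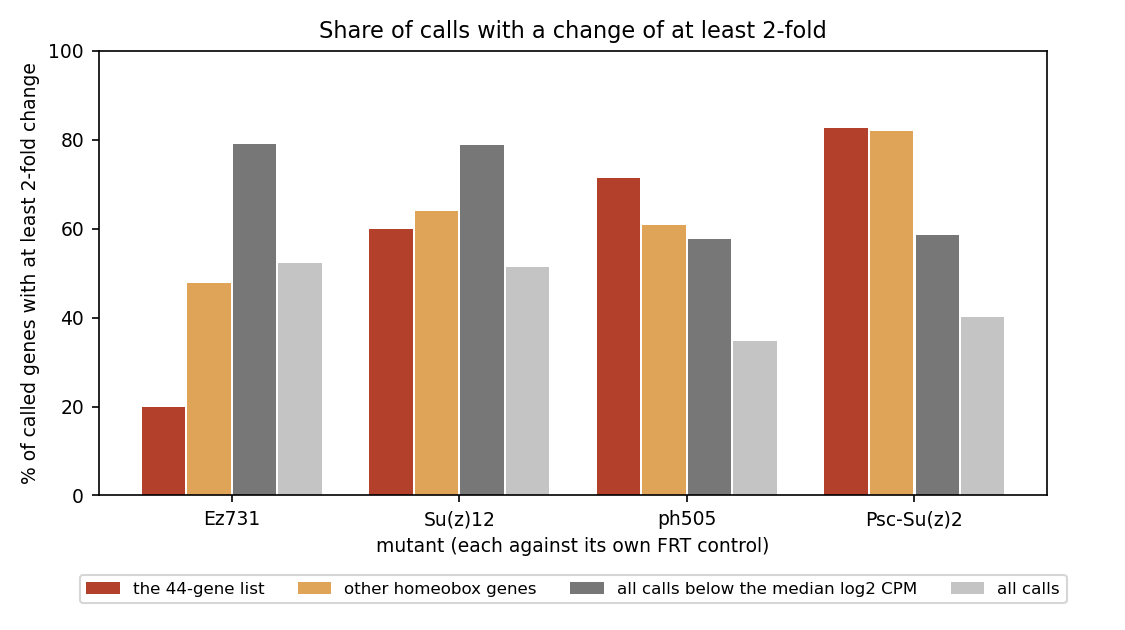
Share of called genes with at least a 2-fold change (vertical axis, percent) in the 4 deposited tables, for called genes of the list, called genes among 55 other homeobox genes, all calls below the table's median log2 CPM and all calls. In Psc-Su(z)2 the list stands at 82.6% and the other homeobox genes at 82.1%, against 40.2% of all calls.

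Higher and lower members largely cancelled in the middle of the list. The median log2 fold of called members was 0.52, 0.72, −0.74 and −0.46 in Ez731, Su(z)12, ph505 and then Psc-Su(z)2, against −0.66, −0.53, −0.35 and 0.21 for all called genes of the authors' deposited tables. Its sign depends on which calls are kept, so no direction is given for the list as a whole. At or above the median log2 CPM it was −0.41 in Su(z)12 and 0.43 in ph505. Only 3 called members were left there in Su(z)12 and 1 in ph505, and both values are those of ct. Another 55 homeobox genes hold the Hox, eye and remaining genes. Of these, 23 were called in Ez731 (15 higher), 25 in Su(z)12 (14 higher), 28 in ph505 (16 higher) and 39 in Psc-Su(z)2 (14 higher). That is 41.8%, 45.5%, 50.9% and 70.9% of them, against 9.87%, 14.6%, 26.7% and 69.4% of all genes, which was not tested. The called genes of this list had median log2 CPM of 5.81, 5.63, 5.58 and 5.24, above those of the called members. Their median log2 folds were 0.57, 0.42, 0.86 and −1.22. Those with the highest folds in the authors' deposited tables were Abd-B, eve and pb, at 8.61, 7.89 and 7.46. Those with the lowest were ro, B-H1 and al, at −6.21, −5.17 and −4.60. Of these, Abd-B, eve, pb and ro lie beyond the members' range of −5.38 to 5.46, and B-H1 and al lie within it.

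All 14 members called in the table labelled ph505 were also called in Psc-Su(z)2, where they are 60.9% of the 23, and 13 of them went the same way. The exception was lbl. Of all genes called in ph505, 84.2% were also called in Psc-Su(z)2, and 87.8% of these 1977 went the same way, so the members' 92.9% is close to that of genes in general. With the ph505 folds read the other way round, 1 of the 14 members and 241 of the 1977 genes would go the same way. The fold was larger in Psc-Su(z)2 for 9 of the 14 (64.3%), against 80.8% of all shared genes. It was smaller there for tin, unpg, gsb, gsb-n and Poxn. These tables have different controls.

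**Figure D4:**
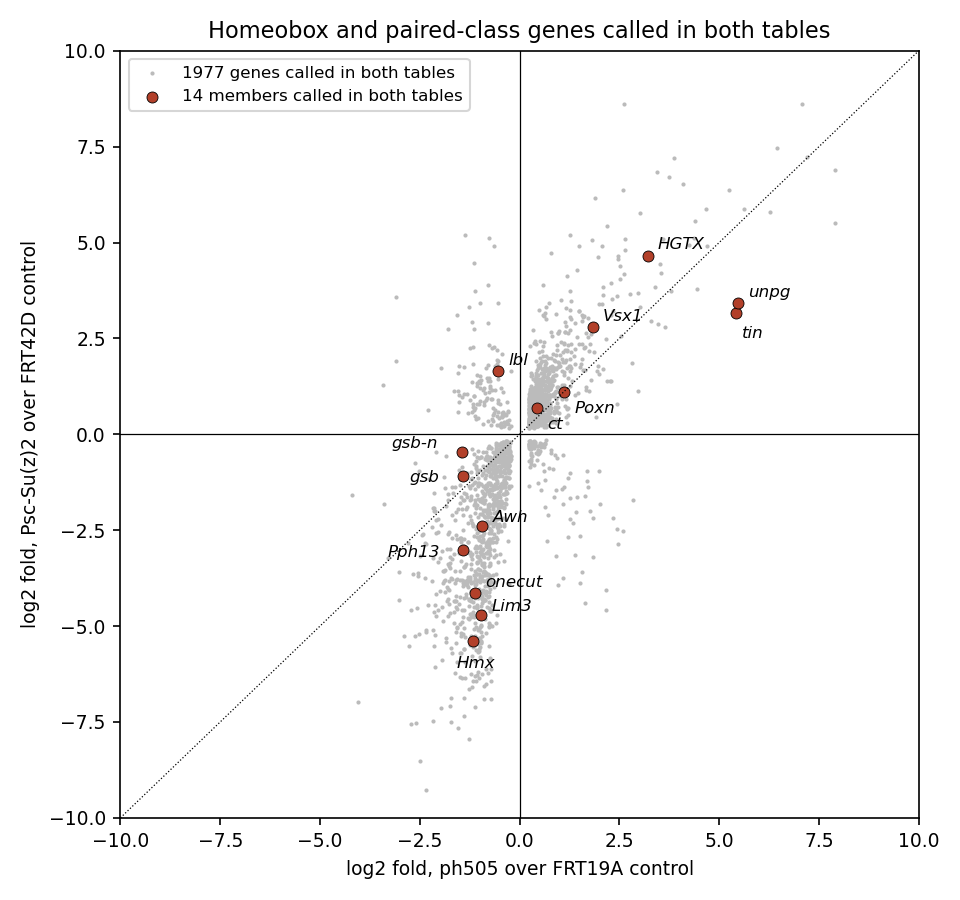
Log2 fold in Psc-Su(z)2 over the FRT42D control (vertical axis) against log2 fold in ph505 over the FRT19A control (horizontal axis) for 1977 genes called in both deposited tables (grey) and the 14 homeobox and paired-class genes among them (red); the dotted line marks equal folds. Hmx, Lim3 and onecut lie farthest below the dotted line, at −4.15 or lower in Psc-Su(z)2. Below it as well are tin and unpg on the right and Pph13 and Awh on the left. Of the 14, only lbl is in the upper left.

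Between PRC2 and Psc-Su(z)2, all 5 members called in Ez731 and 8 of 10 called in Su(z)12 were also called in Psc-Su(z)2 (100% and 80%), against 78.5% and 81.4% of all genes called in Ez731 and Su(z)12. Of these members, 4 of 5 and 6 of 8 went the same way, against 67.2% and 77.0% of all shared genes. The exceptions were Awh in both and ct in Su(z)12. The 2 members called in Su(z)12 and not in Psc-Su(z)2 were prd and exex. Between PRC2 and ph505, all 5 members called in Ez731 and 7 of 10 called in Su(z)12 were also called in ph505. That is 100% and 70%, against 54.2% and 55.9% of all genes called in Ez731 and Su(z)12. Of these members, 3 of 5 and 4 of 7 went the same way (60% and 57.1%), against 72.0% and 81.6% of all shared genes. The exceptions were Awh and lbl in both and ct in Su(z)12. These differences were not tested.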

How the data were processed

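RNA-seq libraries were made from 1 microgram of total RNA of eye discs with 15 PCR cycles, per the labels. Per the submitters' processing notes, the authors used edgeR (2.6.2), Bowtie2 (2.1.0.0), TopHat2 (2.0.8b) and the BDGP5 build. Per the file headers, the authors computed each log2 fold, log2 CPM, p-value and false discovery rate. Groups were 1 sample each, which stands for replicates 1 and 2, so p-values are those of the authors' test, whose spread may be technical, and no test was added here. The 44 members and all lists were chosen with earlier results of these data known. Members matched by current symbol in all 44 cases. Between 43 and 289 identifiers of a table had no symbol. The number of genes tested by the authors follows from the ratio of adjusted to raw p and the rank (8934 in Ez731, 8907 in Su(z)12, 8804 in ph505 and 8886 in Psc-Su(z)2), a step checked on simulated data. Members called in 3 or 4 tables and the 3 highest and 3 lowest folds of each table were named with full values, others by range or when listed. Neighbours and overlapping genes come from the gene order of Release 6, another build than the authors', without coordinates. Region lists of the ChIP-seq samples were not used here, since no annotation of their build was at hand, and no sequences are shown. Shares below the median log2 CPM were added after values were seen. Alternatives were a 1% false discovery rate, at least 2-fold, a log2 CPM no lower than the table median, current symbols only, no Poxn and Poxm, and the ph505 direction turned. Python 3.11.15, numpy 2.4.6, pandas 2.3.3 and matplotlib 3.10.9 were used.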

Additional observations from a re-analysis of the deposited data

Results flagged for a closer look

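Awh, ct and lbl were called higher in some mutants and lower in others, and the difference was not tested. Deposited log2 folds of Awh were 0.86 in Ez731, 0.73 in Su(z)12, −0.94 in ph505 and −2.39 in Psc-Su(z)2. Those of ct were −0.41 in Su(z)12, 0.43 in ph505 and 0.68 in Psc-Su(z)2. Those of lbl were 0.52 in Ez731, 0.71 in Su(z)12, −0.55 in ph505 and 1.64 in Psc-Su(z)2.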

How the results depend on the processing

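Counts and medians were kept where they stayed within 1.5 times. Each table's values are in the order higher, lower and median log2 fold. At 2-fold or more, Ez731 had 1, 0 and 4.62 (3, 2 and 0.52 in the report), Su(z)12 had 2 lower and a median of 1.98 (4 and 0.72), ph505 had 5 lower and a median of −0.0014 (8 and −0.74), and the median of Psc-Su(z)2 was −1.54 (−0.46). At or above the median log2 CPM, Ez731 had 1 higher and 0 lower, Su(z)12 had 1, 2 and −0.41, ph505 had 1, 0 and 0.43, and Psc-Su(z)2 had 2, 0 and 1.16, so the last 3 medians changed sign. At a 1% false discovery rate the median was −0.0029 in Ez731, which changed sign, 0.15 in Su(z)12 and −1.32 in Psc-Su(z)2. Without Poxn and Poxm the median of Psc-Su(z)2 was −1.09. With the direction of ph505 turned, its median was 0.74. Apart from the turned direction, each of these settings drops genes, and the 2-fold cut drops those with the smallest folds. The values thus describe other sets of genes than the main ones. Every member was matched by its current symbol, so the setting with current symbols only kept the same genes and repeated the main values. It therefore could not show whether the results depend on the matching. No paired analysis was possible because each group is 1 sample with no values per replicate, and no replicate could be left out. Depth is unknown, so no limit from depth can be given, and a member in no table was not read as unchanged.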
